A study of Rattus norvegicus with 21 samples.

Results

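The Kruppel-like factors Klf4, Klf5, Klf6, Klf9 and Klf10 were followed in rat NBTII bladder carcinoma cells over 48 h in fibroblast growth factor 1 (FGF1). Every probe set whose single gene symbol in the platform annotation was 1 of these 5 genes was taken, which gave 8 of the 15866 probe sets tested, or 5 of 10410 genes with a symbol of their own. Klf4, Klf5 and Klf10 had 1 probe set each, Klf6 had 2 and Klf9 had 3. In RefSeq (rat build GRCr8) Klf4 lies at chr5:75074107-75079182, Klf5 at chr15:82472081-82487267, Klf6 at chr17:69449483-69458478, Klf9 at chr1:230126646-230151641 and Klf10 at chr7:71352612-71358680. Where a gene had several, the one with the highest mean leads the account.

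Total RNA was measured on 21 Affymetrix arrays, 1 sample each. The groups were NBTII-FGFR1, a derivative of NBTII transfected with FGF receptor 1, and NBTII itself. Each line was sampled at 0, 0.5, 2, 6, 24 and 48 h of FGF1 at 20 ng/ml with heparin, a cofactor for FGF binding. The labels call the 0 h cells controls. All later cells of both lines carried FGF1 and heparin, so time in culture and treatment cannot be told apart. There were 2 arrays in each of 9 groups, and 1 array each for NBTII-FGFR1 at 0.5 h, NBTII at 0.5 h and NBTII at 0 h. Nothing in the labels says that paired arrays came from separate cultures or that the transfected line is more than 1 clone, so p-values measure the spread between these arrays, which may be technical.

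Kruppel-like factors are zinc finger transcription factors that bind GC-rich and CACCC sequences, and several are early genes of the response to serum and growth factors. Klf4 restrains proliferation and promotes barrier differentiation in mouse epithelia. Klf5, mostly an activator, marks the proliferating layer of those epithelia. Klf6 is an activator tied to injury responses, and Klf9 and Klf10 mainly repress by recruiting the Sin3 corepressor. KLF10 was found in human cells as an early gene of transforming growth factor beta (TGF-beta), and Klf9 is a target of glucocorticoid and thyroid hormone receptors in rodents.

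The 250 bases upstream of the annotated gene start are shown for the 3 members with a window upstream of the gene, all of which rose at 0.5 h and fell at 6 h, because they are the stretch in which motifs were counted. They are RefSeq sequences of the rat build GRCr8, read 5′ to 3′ on the gene's own strand, at chr15:82471831-82472080 (plus strand) for Klf5, chr17:69458479-69458728 (minus strand) for Klf6 and chr1:230126396-230126645 (plus strand) for Klf9. Capitals mark motif matches on either strand.
Klf5: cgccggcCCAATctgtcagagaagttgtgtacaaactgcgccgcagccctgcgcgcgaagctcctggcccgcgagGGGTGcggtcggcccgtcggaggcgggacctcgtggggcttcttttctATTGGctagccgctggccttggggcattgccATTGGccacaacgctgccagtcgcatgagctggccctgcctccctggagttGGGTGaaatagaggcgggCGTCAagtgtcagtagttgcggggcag
Klf6: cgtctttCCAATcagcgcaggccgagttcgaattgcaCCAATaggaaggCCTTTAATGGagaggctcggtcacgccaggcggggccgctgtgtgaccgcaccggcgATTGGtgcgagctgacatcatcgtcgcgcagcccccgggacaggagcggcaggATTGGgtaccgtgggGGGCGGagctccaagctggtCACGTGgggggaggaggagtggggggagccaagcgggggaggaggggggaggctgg
Klf9: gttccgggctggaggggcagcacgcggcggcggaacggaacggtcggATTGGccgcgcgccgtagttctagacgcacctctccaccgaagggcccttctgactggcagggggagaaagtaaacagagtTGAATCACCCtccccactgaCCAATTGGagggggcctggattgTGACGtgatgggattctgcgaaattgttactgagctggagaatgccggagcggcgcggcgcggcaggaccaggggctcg

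The motifs searched were the cAMP response element half-site TGACG, the AP-1 site TGANTCA, the CArG box of serum response factor, the GC box GGGCGG, the CACCC box CACCC, the CCAAT box CCAAT and the E-box CACGTG. The Klf6 stretch held a CArG box that begins 201 bases upstream of the start, a motif found in 1.50% of the 33469 rat promoter windows of this length. It also held an E-box 56 bases upstream (5.59% of windows) and a GC box 76 bases upstream (30.5%). The Klf9 stretch held an AP-1 site 122 bases upstream (6.34%), which overlaps a CACCC box (49.2%), and a TGACG half-site 79 bases upstream (18.2%). The Klf5 stretch held a TGACG half-site 27 bases upstream and 2 CACCC boxes. CCAAT boxes, found in 34.0% of windows, numbered 3 in Klf5, 4 in Klf6 and 3 in Klf9, of which 2 in Klf9 overlap. The Klf4 window of the table lies inside the annotated gene span and is not shown, and it held 0 matches of the 7 motifs. These are matches of letters in a window and say nothing of whether a factor binds there.

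All levels are log2 signals. The median of an array ranged from 6.13 to 6.21 and its lower quartile from 4.36 to 4.54. Of 9 epithelial markers measured, 7 lay above the array median on every array (Krt14 11.76 to 13.93, Epcam 10.20 to 11.35), while Krt18 ran from 4.27 to 8.09 and Krt19 from 3.24 to 3.86. Of 8 mesenchymal markers, 4 lay above the lower quartile on every array, namely Vim (4.97 to 9.82), Fn1 (8.01 to 10.28), Acta2 (5.48 to 6.80) and Col1a1 (4.98 to 5.49). So did 3 of 6 leukocyte markers, Cd14 (7.29 to 8.55), Cd68 (5.19 to 6.68) and Lyz2 (4.79 to 5.57), while Ptprc did not (3.33 to 3.80), and 0 of 3 endothelial markers. Fgfr1 read 4.56 to 7.58 in NBTII-FGFR1 from 2 h on and 3.58 to 4.05 in NBTII. The library labelled NBTII-FGFR1 0 h replicate 1 gave Fgfr1 as 3.57, while replicate 2 gave 5.92 and the NBTII array of 0 h 3.97. Every NBTII-FGFR1 difference from 0 h thus rests in part on a library whose Fgfr1 level goes against its label. Over all probe sets this library was closest to replicate 2 (r = 0.9954), above its correlation with the NBTII array of 0 h (r = 0.9923). The library's values for the leading Klf6 probe set (9.32) and for Klf4 (8.40) were those of replicate 2. For the second Klf9 probe set it read 6.33, between NBTII at 0 h (6.24) and replicate 2 (6.51) and nearer to NBTII. NBTII-FGFR1 2 h replicate 1 correlated better with NBTII 0.5 h (r = 0.9899 over probe sets) than with its own partner (r = 0.9877). The partner, NBTII-FGFR1 2 h replicate 2, and NBTII 2 h replicate 2 were likewise closest to each other (r = 0.9930), above their own partners (r = 0.9877 and 0.9918). NBTII-FGFR1 0 h replicate 1 and 2 h replicate 1, called the doubted arrays here, are left out together as an alternative, given below wherever it ends a call. The bacterial poly-A spikes read 6.54 to 7.12 at 0 h and 5.69 to 6.13 later, so every difference from 0 h also sets these ranges apart, and their part in the results was not tested.

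All 5 factors shared an early rise and a fall by 6 h. At 0.5 h against 0 h, averaged over both lines, 6 of the 8 probe sets rose, with all 5 genes among them, against 1.68% of all probe sets that rose. Each line had 1 array at 0.5 h, and the calls of Klf5 and Klf9 did not hold in every fit that left out 1 array. The members were chosen with earlier results of these data known. The median change of the 8 was 1.14, against -0.03 for all probe sets. Between 0.5 and 2 h 0 of the 8 passed the test (limma), against 2.17% of all probe sets called. At an unadjusted p under 0.05 there were 2 of the 8, against 12.3% of all. At 6 h against 2 h, 7 of the 8 fell, the other being the dimmest Klf9 probe set, against 8.16% of all probe sets that fell, and the median change was -0.67 against 0.03 for all. At 24 h against 6 h, 5 of the 8 fell further, from Klf4, Klf5, Klf6 and Klf10 (8.83% of all fell), and at 48 h against 24 h 5 rose again, from Klf4, Klf5, Klf6 and Klf9 (5.01% of all rose). The steps share arrays at their common times and are not independent of each other. As the cells were measured in bulk, a change in the share of cells that express a gene and a change of RNA per cell cannot be told apart.

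**Figure D1:**
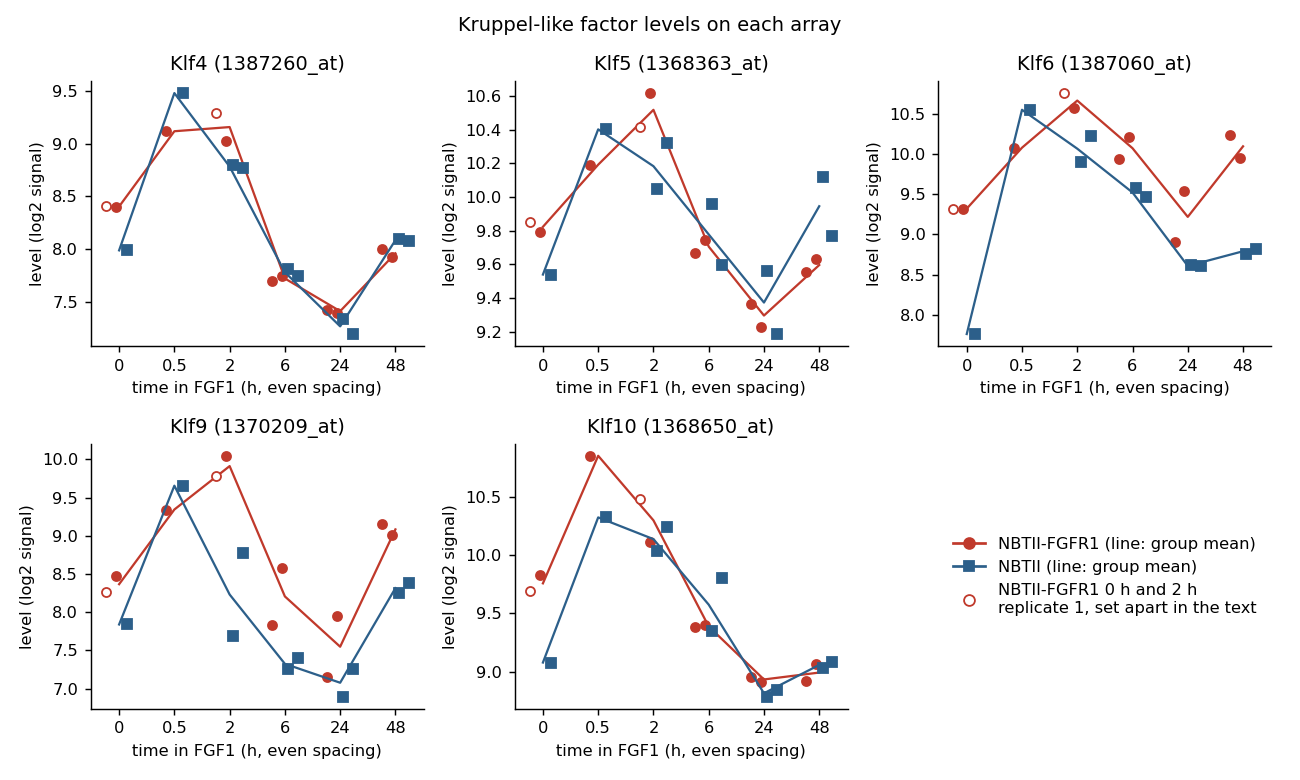
Log2 signal of the leading probe set of each gene on every array (y axis), by time in FGF1 in h (x axis, evenly spaced), with NBTII-FGFR1 as circles and NBTII as squares; lines join group means and open circles are the 2 arrays set apart in the text. All 5 genes stand at their highest group mean at 0.5 or 2 h and fall by 6 h, and Klf6 and Klf9 are high again in NBTII-FGFR1 at 48 h.

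**Figure D2:**
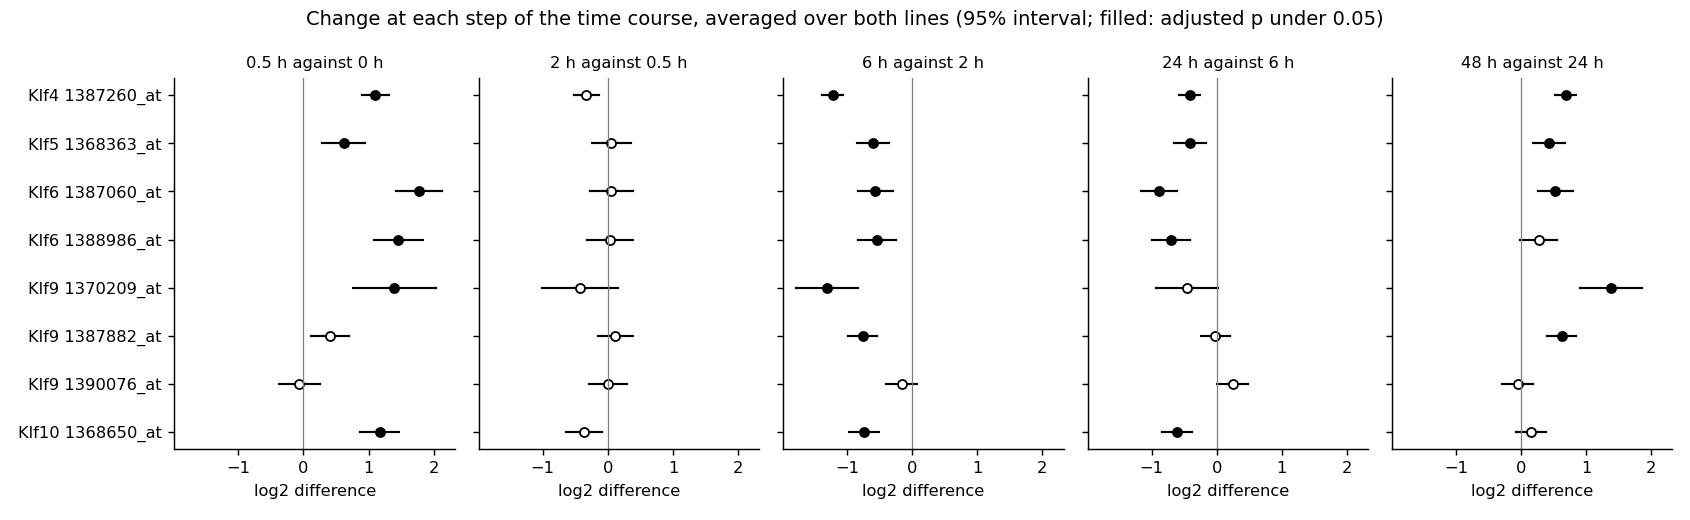
Log2 difference of each probe set at each of 5 steps of the time course, averaged over both lines (x axis), with 95% intervals from limma; filled points had an adjusted p under 0.05. At 0.5 h against 0 h the filled points lie right of 0, at 6 h against 2 h they lie left of it, and between 0.5 and 2 h none is filled.

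Klf4 in NBTII-FGFR1 read 8.40 and 8.40 at 0 h, 9.12 at 0.5 h, 9.29 and 9.03 at 2 h, 7.70 and 7.74 at 6 h, 7.42 and 7.39 at 24 h, and 7.996 and 7.92 at 48 h. In NBTII it read 7.99 at 0 h, 9.48 at 0.5 h, 8.80 and 8.77 at 2 h, 7.81 and 7.75 at 6 h, 7.34 and 7.19 at 24 h, and 8.09 and 8.07 at 48 h. The arrays of 0.5 h lay above all arrays of 0 h, and those of 6 h lay below all arrays of 2 h. Klf4 rose by 1.11 ± 0.099 (SE), or 2.15-fold, at 0.5 h against 0 h (adjusted p = 2.6e-05). It fell by 1.22 ± 0.075 at 6 h against 2 h (adjusted p = 4.2e-07), which ranked 3 of all 15866 probe sets by size of the statistic. It fell by a further 0.41 ± 0.075 at 24 h (adjusted p = 0.0011) and rose by 0.68 ± 0.075 at 48 h against 24 h (adjusted p = 1.3e-04), with no overlap of arrays at either step. The step from 0.5 to 2 h (-0.33 ± 0.092) had an adjusted p of 0.085, and passed without NBTII-FGFR1 2 h replicate 1 or without both doubted arrays (-0.39, adjusted p = 0.024 in the second case).

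Klf5 in NBTII-FGFR1 read 9.85 and 9.79 at 0 h, 10.19 at 0.5 h, 10.42 and 10.62 at 2 h, 9.67 and 9.74 at 6 h, 9.37 and 9.23 at 24 h, and 9.56 and 9.64 at 48 h. In NBTII it read 9.54 at 0 h, 10.40 at 0.5 h, 10.05 and 10.32 at 2 h, 9.96 and 9.60 at 6 h, 9.56 and 9.19 at 24 h, and 10.12 and 9.77 at 48 h. It had the smallest span of group means among the leading probe sets, 1.22 against 2.04 to 2.90 for the other 4, and only its fall from 2 to 6 h held in all 18 fits that left out 1 array. That fall was 0.61 ± 0.11 (adjusted p = 0.0022), with every array of 6 h below every array of 2 h. The rise at 0.5 h of 0.62 ± 0.15, or 1.53-fold, only just passed (adjusted p = 0.0497). It missed the threshold without any 1 of the 8 NBTII-FGFR1 arrays of 0, 6, 24 and 48 h (0.60 to 0.63, adjusted p up to 0.10) and without both doubted arrays (adjusted p = 0.073). The fall at 24 h against 6 h (-0.41 ± 0.11, adjusted p = 0.020) was lost without NBTII-FGFR1 6 h or 24 h replicate 2, NBTII 6 h replicate 1 or NBTII 24 h replicate 2 (adjusted p up to 0.10). The rise at 48 h against 24 h (0.44 ± 0.11, adjusted p = 0.024) was lost without NBTII-FGFR1 24 h replicate 2, either NBTII-FGFR1 48 h array, NBTII 24 h replicate 2 or NBTII 48 h replicate 1 (adjusted p up to 0.12).

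Averaged over both lines, Klf6 changed most among the 5 at 0.5 h. In NBTII-FGFR1 alone, Klf10 (1.10 ± 0.18) and the leading Klf9 probe set (0.98 ± 0.39) rose more than Klf6 (0.76 ± 0.22). The 0 h levels of Klf6 lay apart between the lines, with 1 array in NBTII, and that difference was not tested. The leading probe set in NBTII-FGFR1 read 9.32 and 9.32 at 0 h, 10.08 at 0.5 h, 10.76 and 10.57 at 2 h, 9.93 and 10.21 at 6 h, 8.90 and 9.53 at 24 h, and 10.24 and 9.95 at 48 h. In NBTII it read 7.76 at 0 h, 10.55 at 0.5 h, 9.91 and 10.23 at 2 h, 9.58 and 9.46 at 6 h, 8.61 and 8.60 at 24 h, and 8.76 and 8.82 at 48 h. The lone NBTII array of 0 h was the lowest of all 21. Over both lines Klf6 rose by 1.77 ± 0.17, or 3.42-fold, at 0.5 h against 0 h (adjusted p = 4.0e-05). Within the lines the rise was 0.76 ± 0.22 in NBTII-FGFR1 and 2.79 ± 0.25 in NBTII, 1 array at 0.5 h in each. The difference between these rises was not tested.

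Averaged over both lines, each fall of Klf6 was smaller than its rise at 0.5 h. In NBTII-FGFR1 alone the level at 24 h lay at -0.10 ± 0.18 against 0 h. Over both lines Klf6 fell by 0.57 ± 0.13 at 6 h against 2 h (adjusted p = 0.0068) and by 0.88 ± 0.13 at 24 h against 6 h (adjusted p = 1.9e-04). Arrays of the 2 times overlapped at both steps. It rose by 0.53 ± 0.13 at 48 h against 24 h (adjusted p = 0.015), a call lost without NBTII-FGFR1 24 h or 48 h replicate 1, or NBTII 24 h or 48 h replicate 2 (adjusted p up to 0.081). The second probe set ran from 6.64 in NBTII at 0 h to 9.25 in NBTII-FGFR1 at 2 h and correlated with the first at r = 0.97 over the 12 group means. It rose by 1.46 ± 0.18 at 0.5 h (adjusted p = 3.5e-04) and fell at 24 h against 6 h (-0.70 ± 0.14, adjusted p = 0.0017). Its fall at 6 h against 2 h (-0.54 ± 0.14, adjusted p = 0.014) became -0.38 (adjusted p = 0.066) without both doubted arrays, and was lost as well without NBTII 2 h replicate 2, NBTII 6 h replicate 2 or NBTII-FGFR1 2 h replicate 1 alone. Its change at 48 h against 24 h (0.27 ± 0.14) did not pass (adjusted p = 0.25).

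Klf9, the repressor with the widest late swing, in NBTII-FGFR1 read 8.26 and 8.47 at 0 h, 9.34 at 0.5 h, 9.78 and 10.05 at 2 h, 7.83 and 8.58 at 6 h, 7.15 and 7.95 at 24 h, and 9.15 and 9.02 at 48 h (leading probe set). In NBTII it read 7.84 at 0 h, 9.66 at 0.5 h, 7.68 and 8.78 at 2 h, 7.25 and 7.40 at 6 h, 6.89 and 7.26 at 24 h, and 8.25 and 8.38 at 48 h. The NBTII arrays of 2 h lay on both sides of the 0 h array. Klf9 rose by 1.40 ± 0.30, or 2.63-fold, at 0.5 h (adjusted p = 0.023), a call lost when the library labelled NBTII-FGFR1 0 h replicate 1 was left out (1.34, adjusted p = 0.072) or both doubted arrays were (adjusted p = 0.056). It fell by 1.31 ± 0.22 at 6 h against 2 h (adjusted p = 0.0011) and rose by 1.39 ± 0.22, or 2.62-fold, at 48 h against 24 h (adjusted p = 0.0013), with all 4 arrays of 48 h above all 4 of 24 h. The rise at 48 h was the largest of the 5 genes at that step. The change at 24 h against 6 h (-0.45 ± 0.22) did not pass (adjusted p = 0.19).

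The other Klf9 probe sets were dimmer. The second lay between 5.69 and 7.43, correlated with the first at r = 0.92 over the group means, and passed at 2 of the 5 steps, falling by 0.76 ± 0.10 at 6 h (adjusted p = 1.8e-04) and rising by 0.62 ± 0.10 at 48 h (adjusted p = 0.0013). Its change at 0.5 h (0.41 ± 0.14) did not pass (adjusted p = 0.15). The third lay between 4.07 and 4.66, near the lower quartile of all probe sets, and passed in 0 of the 17 comparisons. It is given no weight as a measure of Klf9.

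**Figure D3:**
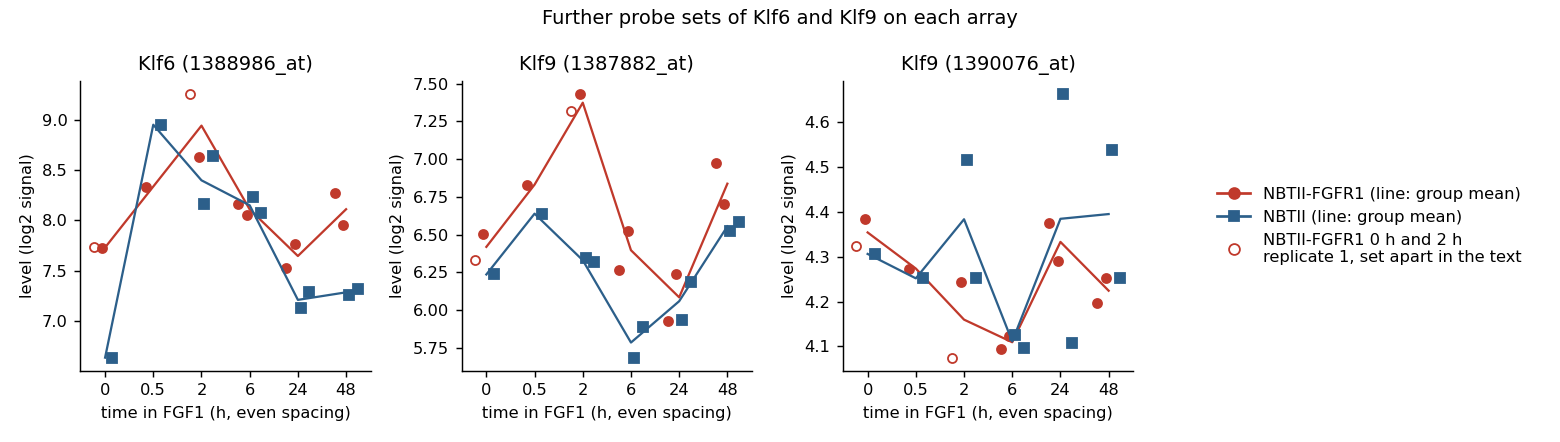
Log2 signal of the second Klf6 probe set and the 2 further Klf9 probe sets on every array (y axis, a scale of its own in each panel), by time in FGF1 in h (x axis, evenly spaced); symbols as in the plot of the leading probe sets. The second Klf6 and the second Klf9 probe set correlate with their leading ones (r = 0.97 and 0.92 over the 12 group means), while the third of Klf9 stays between 4.07 and 4.66. From 6 to 24 h in NBTII the second Klf9 probe set rises (5.79 to 6.06) where the leading one falls (7.32 to 7.08).

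Klf10 was highest at 0.5 h in both lines. In NBTII-FGFR1 it read 9.69 and 9.83 at 0 h, 10.85 at 0.5 h, 10.49 and 10.11 at 2 h, 9.38 and 9.40 at 6 h, 8.95 and 8.91 at 24 h, and 8.92 and 9.06 at 48 h. In NBTII it read 9.08 at 0 h, 10.33 at 0.5 h, 10.03 and 10.24 at 2 h, 9.35 and 9.80 at 6 h, 8.78 and 8.84 at 24 h, and 9.03 and 9.08 at 48 h. Klf10 rose by 1.17 ± 0.14, or 2.25-fold, at 0.5 h (adjusted p = 3.1e-04), then fell by 0.74 ± 0.11 at 6 h against 2 h (adjusted p = 3.2e-04) and by 0.61 ± 0.11 at 24 h against 6 h (adjusted p = 8.7e-04). Arrays did not overlap at these 3 steps. Its change at 48 h against 24 h was 0.15 ± 0.11 with an interval from -0.08 to 0.38 (adjusted p = 0.45). Its step from 0.5 to 2 h (-0.37 ± 0.13, adjusted p = 0.20) passed only without NBTII-FGFR1 2 h replicate 1 (-0.46).

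Ordered by level, the top groups of Klf6, in falling order, were NBTII-FGFR1 at 2 h (10.66), NBTII at 0.5 h (10.55), NBTII-FGFR1 at 48 h (10.10), 0.5 h (10.08) and 6 h (10.07), and NBTII at 2 h (10.07). Neighbours among these 6 did not differ beyond the 95% interval of the fit, which is not adjusted for the choice of neighbours and, for a group of 1 array, borrows its spread from the other groups. The bottom of the order was NBTII at 48 h (8.79), at 24 h (8.61) and at 0 h (7.76), and the last gap, 0.85 down to the lone array of 0 h, exceeded its interval. The same difference, NBTII at 24 h against 0 h, was not called in the adjusted test. For Klf9 the order fell from NBTII-FGFR1 at 2 h (9.91) and NBTII at 0.5 h (9.66) to NBTII at 24 h (7.08), and 1 gap, of 0.72 between NBTII-FGFR1 at 48 h and at 0 h, exceeded its interval. That difference was not called in the adjusted test either (limma, adjusted p = 0.13). For Klf4 the order fell from NBTII at 0.5 h (9.48) to NBTII at 24 h (7.26), with NBTII-FGFR1 at 2 h (9.16) and at 0.5 h (9.12) indistinguishable between them. For Klf10 it fell from NBTII-FGFR1 at 0.5 h (10.85) and NBTII at 0.5 h (10.33), 1 array each, to NBTII at 24 h (8.81). For Klf5 it fell from NBTII-FGFR1 at 2 h (10.52) to NBTII-FGFR1 at 24 h (9.30), with 0 gaps between neighbours beyond their interval.

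The next question was where the transfected line differed from its parent. Averaged over 2 and 6 h, 3 of the 8 probe sets were higher in NBTII-FGFR1 than in NBTII, from Klf9 and Klf6, against 1.9% of all probe sets that were higher. Averaged over 24 and 48 h, 2 of the 8 were higher, both of Klf6, against 6.27% of all. The median line difference of the 8 was 0.20 at 2 and 6 h and 0.09 at 24 and 48 h, against -0.02 and -0.05 for all probe sets.

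Klf9 carried the early difference. Its leading probe set averaged 9.06 in NBTII-FGFR1 and 7.78 in NBTII at 2 and 6 h, a difference of 1.28 ± 0.22, or 2.43-fold (adjusted p = 0.0065), and the second probe set differed by 0.83 ± 0.10, or 1.77-fold (adjusted p = 0.0012). The second ranked 11 of all probe sets in this comparison. In a fit to the compared arrays alone the first had an adjusted p of 0.055 and the second of 0.012. By time, the leading probe set differed by 1.68 ± 0.32 at 2 h, 0.88 ± 0.32 at 6 h, 0.47 ± 0.32 at 24 h and 0.77 ± 0.32 at 48 h. At 2 h and at 6 h, all NBTII-FGFR1 arrays lay above all NBTII arrays in both probe sets, with 2 arrays a side. How many of all probe sets lie apart in this way was not counted. At 24 and 48 h the difference was 0.62 ± 0.22 (adjusted p = 0.088) and 0.15 ± 0.10 (adjusted p = 0.34) in the 2 probe sets. The first of these passed in a fit to the compared arrays alone (adjusted p = 0.021) and with weighted arrays (adjusted p = 0.020).

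Both calls between the lines at 24 and 48 h were of Klf6, though its largest line difference stood at 0 h. Its leading probe set averaged 9.66 in NBTII-FGFR1 and 8.70 in NBTII at 24 and 48 h, a difference of 0.96 ± 0.13, or 1.94-fold (adjusted p = 4.9e-04), with all 4 NBTII-FGFR1 arrays above all 4 of NBTII. The second probe set differed by 0.63 ± 0.14 (adjusted p = 0.0084), also with no overlap, and missed the threshold only without NBTII-FGFR1 48 h replicate 1 (0.55, adjusted p = 0.052). At 24 h alone the differences were 0.61 ± 0.18 and 0.44 ± 0.19, and at 48 h alone 1.30 ± 0.18 and 0.82 ± 0.19. At 2 and 6 h the leading probe set differed by 0.57 ± 0.13 (adjusted p = 0.021) and the second by 0.25 ± 0.14 (adjusted p = 0.36). The first was lost in a fit to the compared arrays alone (adjusted p = 0.062), with weighted arrays (adjusted p = 0.098), without NBTII-FGFR1 2 h replicate 1, NBTII-FGFR1 6 h replicate 2, NBTII 2 h replicate 1 or either NBTII 6 h array (adjusted p up to 0.090), and without both doubted arrays (0.53, adjusted p = 0.067). The Klf6 difference at 0 h, 1.56 ± 0.22 in the leading probe set, sets 2 arrays against 1 and was given no test. Of the 2 arrays, 1 has an Fgfr1 level that goes against its label.

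The other 3 factors gave no call between the lines. At 2 and 6 h the intervals of the difference ran from -0.0017 to 0.32 for Klf4, from -0.11 to 0.38 for Klf5 and from -0.24 to 0.21 for Klf10. At 24 and 48 h they ran from -0.15 to 0.17, from -0.46 to 0.03 and from -0.20 to 0.25. A change of the line difference over 2 to 48 h, tested for each probe set by an F test of line by time, was called in 0 of 8, against 0.441% of all probe sets. At an unadjusted p under 0.05 there were 4 of the 8, against 15.5% of all. The smallest adjusted p among the 8 was 0.090, for the second Klf9 probe set. The early place of Klf9 and the late place of Klf6 are values of 2 time windows. The windows were not tested against each other, and the F test over 2 to 48 h called neither gene.

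**Figure D4:**
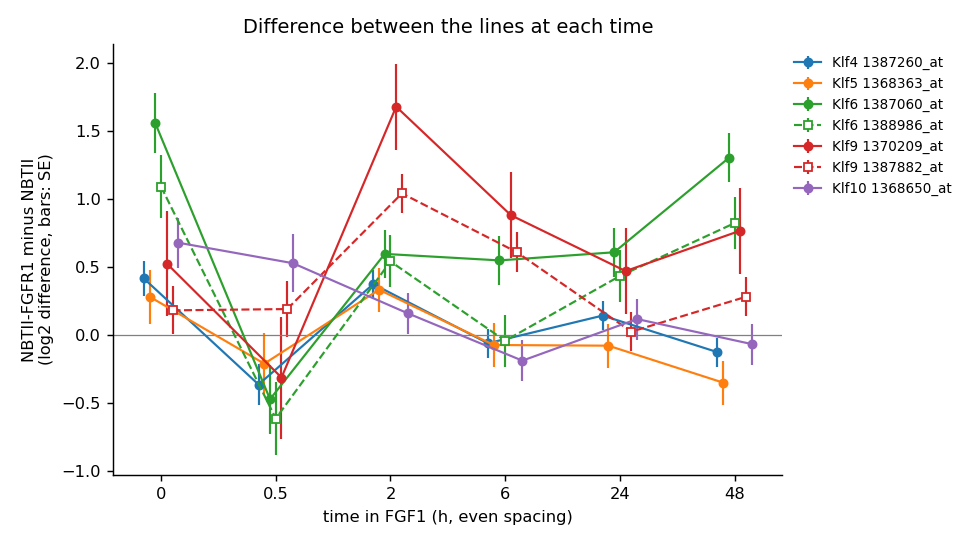
Log2 difference between NBTII-FGFR1 and NBTII (y axis, above 0 where NBTII-FGFR1 is higher) at each time in FGF1 in h (x axis, evenly spaced), with the standard error of the fit as bars; 1 line per probe set, and the third Klf9 probe set is left out. Klf9 stands highest at 2 h (1.68 and 1.04), Klf6 at 48 h (1.30 and 0.82) and 0 h (1.56 and 1.09), and Klf4, Klf5 and Klf10 lie between -0.36 and 0.68 at every time.

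Each line was then compared with its own 0 h arrays, which all 4 comparisons of a line share. In NBTII-FGFR1 at 2 h, 7 of the 8 probe sets were higher (5.27% of all were higher). At 6 h 1 was higher and 1 lower (9.38% and 11.9% of all), at 24 h 2 were lower (2.73% of all were lower), and at 48 h 1 was higher and 2 lower (10.5% and 10.9% of all). In NBTII at 2 h, 4 were higher (1.95% of all were higher), at 6 h 2 were higher (3.7%), at 24 h 1 was lower (0.372%) and at 48 h 1 was higher (0.58%). With only the arrays compared in the fit, which leaves NBTII 1 array against 2, 0 of the 8 passed in NBTII at any of the 4 times.

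Klf4 ended below its starting level in NBTII-FGFR1. It was higher than at 0 h by 0.76 ± 0.11 at 2 h (adjusted p = 3.8e-04, but 0.082 in a fit to the compared arrays alone) and lower by 0.68 ± 0.11 at 6 h (adjusted p = 3.8e-04), by 0.996 ± 0.11 at 24 h (adjusted p = 1.3e-04) and by 0.45 ± 0.11 at 48 h (adjusted p = 0.0068). The last was lost without NBTII-FGFR1 48 h replicate 2 (adjusted p = 0.061). In NBTII it was higher by 0.80 ± 0.13 at 2 h (adjusted p = 0.0037) and lower by 0.72 ± 0.13 at 24 h (adjusted p = 0.018), and the call at 24 h was lost without NBTII 24 h replicate 2 (adjusted p = 0.10). At 48 h NBTII lay 0.10 ± 0.13 above 0 h (adjusted p = 0.88).

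Klf10 likewise ended below its start in NBTII-FGFR1, by 0.83 ± 0.15 at 24 h (adjusted p = 0.0063) and 0.77 ± 0.15 at 48 h (adjusted p = 0.0020). The call at 24 h was lost without NBTII-FGFR1 24 h replicate 2 (adjusted p = 0.077). In NBTII the values were -0.26 ± 0.18 and -0.02 ± 0.18. At 2 h Klf10 was higher by 0.54 ± 0.15 in NBTII-FGFR1 (adjusted p = 0.036) and by 1.06 ± 0.18 in NBTII (adjusted p = 0.0060). The NBTII-FGFR1 value was 0.28 (adjusted p = 0.50) without both doubted arrays and was lost too without either 0 h array, NBTII-FGFR1 2 h replicate 1 or either NBTII 48 h array (adjusted p up to 0.23).

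The leading Klf6 probe set was above its 0 h level at 2, 6 and 48 h in both lines. In NBTII-FGFR1 it was higher by 1.34 ± 0.18 at 2 h (adjusted p = 2.9e-04), by 0.75 ± 0.18 at 6 h (adjusted p = 0.0075) and by 0.77 ± 0.18 at 48 h (adjusted p = 0.0058), and lay at -0.10 ± 0.18 at 24 h. The call at 6 h was lost without NBTII-FGFR1 6 h replicate 2 (adjusted p = 0.086) and that at 48 h without NBTII-FGFR1 48 h replicate 1 (adjusted p = 0.085). In NBTII it was higher by 2.30 ± 0.22, or 4.94-fold, at 2 h (adjusted p = 7.5e-05), by 1.76 ± 0.22 at 6 h (adjusted p = 3.7e-04) and by 1.03 ± 0.22 at 48 h (adjusted p = 0.042), and lay at 0.85 ± 0.22 at 24 h (adjusted p = 0.095). The 48 h call in NBTII was lost in 10 of the 18 fits that left out 1 array, those without an array of 0 h or 48 h of NBTII-FGFR1 or of 6, 24 or 48 h of NBTII (adjusted p up to 0.21). Without either NBTII-FGFR1 24 h array, NBTII at 24 h passed. The second probe set passed at 2 h in NBTII-FGFR1 (1.21, adjusted p = 1.0e-03, but 0.076 in a fit to the compared arrays alone) and at 2 h (1.76, adjusted p = 8.4e-04) and 6 h (1.51, adjusted p = 0.0016) in NBTII, and at no other time.

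Klf5 and Klf9 passed against 0 h at 2 h in NBTII-FGFR1 and in 0 comparisons in NBTII. Klf5 was higher by 0.69 ± 0.16 (adjusted p = 0.015), a call lost without either NBTII-FGFR1 0 h array, NBTII-FGFR1 2 h replicate 2 or both doubted arrays (adjusted p up to 0.083), and NBTII gave 0.64 ± 0.20 (adjusted p = 0.10). Klf9 was higher by 1.55 ± 0.32, or 2.92-fold (adjusted p = 0.0071), and by 0.95 ± 0.14 in the second probe set (adjusted p = 7.3e-04). The first was lost when the 0 h library of doubtful label was left out (adjusted p = 0.074) and without both doubted arrays (1.57, adjusted p = 0.082), and the second was not. In NBTII the 2 probe sets gave 0.39 ± 0.39 and 0.09 ± 0.18 at 2 h, where the arrays of the first (7.68 and 8.78) lay on both sides of the 0 h value (7.84). At 48 h the second Klf9 probe set lay 0.42 ± 0.14 above 0 h in NBTII-FGFR1, just short of a call (adjusted p = 0.052), and passed in 7 of the 18 fits without 1 array. The leading one lay 0.72 ± 0.32 above 0 h (adjusted p = 0.13). Both passed in fits to the compared arrays alone (adjusted p = 0.0030 for the leading one and 0.041 for the second) and with weighted arrays (0.030 and 0.018), and neither did without both doubted arrays (0.38 and 0.27).

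**Figure D5:**
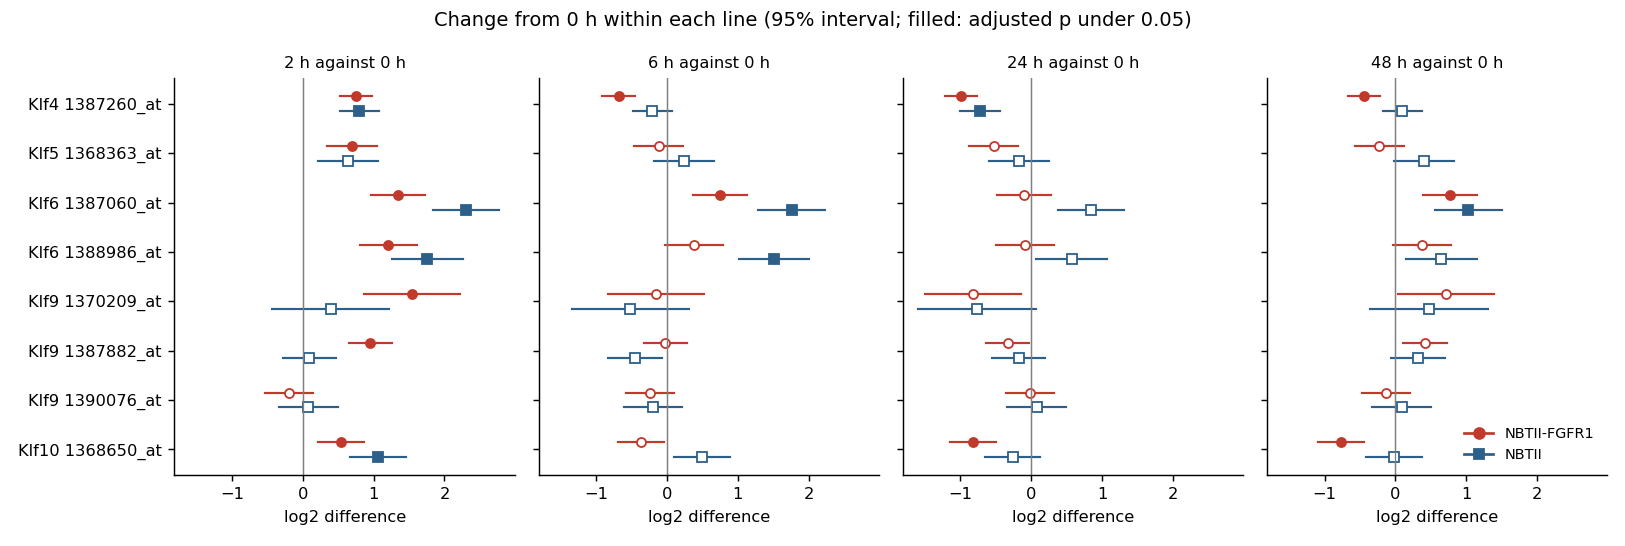
Log2 difference from 0 h of each probe set (x axis) at 2, 6, 24 and 48 h, with NBTII-FGFR1 as circles above NBTII as squares and 95% intervals from limma; filled symbols had an adjusted p under 0.05. Klf4 and Klf10 lie left of 0 in NBTII-FGFR1 at 24 and 48 h, and Klf6 lies further right in NBTII than in NBTII-FGFR1 at 2 and 6 h.

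Whether the lines responded differently on average was tested as the mean of 2 to 48 h minus 0 h in NBTII-FGFR1 minus the same in NBTII. It was called in 0 of 8 probe sets, against 0.214% of all. At an unadjusted p under 0.05 there were 4 of the 8, against 10.4% of all. The leading Klf6 probe set changed by 0.69 ± 0.14 in NBTII-FGFR1 and 1.49 ± 0.19 in NBTII, a difference of -0.79 with an interval from -1.30 to -0.29 (adjusted p = 0.20). Klf10 changed by -0.36 ± 0.12 in NBTII-FGFR1 and 0.32 ± 0.16 in NBTII, a difference of -0.67 with an interval from -1.10 to -0.25 (adjusted p = 0.19). Klf4 gave -0.33 (adjusted p = 0.41), Klf5 -0.32 (adjusted p = 0.67) and the leading Klf9 probe set 0.42 (adjusted p = 0.81).

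Of the other 20 genes of the KLF and SP family that were looked for, 8 had a probe set. At 0.5 h against 0 h 0 of these 8 passed, and their median change was 0.06. At an unadjusted p under 0.05 there were 5 of them, against 15.8% of all probe sets. Their directions were mixed: Klf3 (0.96) and Sp1 (0.39) were higher, and Klf2 (-0.28), Klf15 (-0.24) and Sp3 (-0.27) lower. At 6 h against 2 h 3 fell (8.16% of all) and 0 rose, namely Klf13 (-1.14 ± 0.23, adjusted p = 0.0031), Klf16 (-0.40 ± 0.098, adjusted p = 0.012) and Sp1 (-0.42 ± 0.14, adjusted p = 0.048), of which Sp1 was lost in 16 of 18 fits without 1 array (adjusted p up to 0.20) and Klf16 in 1. Klf16 rose at 24 h against 6 h (0.42 ± 0.098, adjusted p = 0.0065) and fell at 48 h against 24 h (-0.34 ± 0.098, adjusted p = 0.036), which was lost in 6 of 18 fits (adjusted p up to 0.17). Klf3, a repressor that acts through CtBP, gave 0.96 ± 0.26 at 0.5 h (adjusted p = 0.074) and stood at 9.17 in NBTII at 0.5 h, the highest of its group means. Klf2, known in endothelium for its response to flow, ranged from 7.29 to 7.81 over all arrays, and Klf15 (3.34 to 3.82), Sp3 (4.14 to 4.79) and Sp4 (3.94 to 4.74) stayed near or below the lower quartile of all probe sets. Klf15 was nonetheless lower in NBTII-FGFR1 than in NBTII at 24 and 48 h (-0.31 ± 0.070, adjusted p = 0.011).

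Genes with which these factors are linked in mouse or human were then read from 3 lists, chosen with earlier results of these data known. Of 15 genes of the TGF-beta pathway, 13 were measured. At 2 h against 0 h, 5 were higher in NBTII-FGFR1 (5.27% of all) and 3 in NBTII (1.95% of all), and 0 were lower in either, with medians of 0.01 and 0.22. Skil, a corepressor of Smad proteins, was higher by 1.50 ± 0.22 (adjusted p = 6.6e-04) and Tgif1, another, by 1.02 ± 0.17 (adjusted p = 0.0013) in NBTII-FGFR1 at 2 h. Smad3, which carries the signal, was higher there by 0.97 ± 0.21 (adjusted p = 0.010) and inhibitory Smad7 by 0.84 ± 0.23 (adjusted p = 0.036). Smad7, read from 1 of its 3 probe sets, was dim, from 4.23 to 5.93 over all arrays, with its low end below the lower quartile. Smad3 was lost without NBTII-FGFR1 0 h replicate 1 or 2 h replicate 2 (adjusted p up to 0.11), and Smad7 without these or 0 h replicate 2 (adjusted p up to 0.24). At 24 h against 6 h 4 fell and 1 rose (8.83% and 11.5% of all), with Tgfb1, a ligand, falling by 0.76 ± 0.15 (adjusted p = 0.0019), Skil by 0.68 ± 0.16 (adjusted p = 0.0062) and Tgif1 by 0.67 ± 0.12 (adjusted p = 8.5e-04). Smad7 fell by 0.64 ± 0.17 (adjusted p = 0.012), lost in 3 of 18 fits without 1 array (adjusted p up to 0.064). Skil was higher in NBTII-FGFR1 than in NBTII at 24 and 48 h, by 0.86 ± 0.16 (adjusted p = 0.0036). In the same comparison Tgif1 was higher by 0.50 ± 0.12 (adjusted p = 0.013), lost in 4 of 18 fits (adjusted p up to 0.074), and the coreceptor gene Tgfbr3 differed by -0.40 ± 0.077 (adjusted p = 0.0045).

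Of 16 epithelial genes that KLF4 or KLF5 act on, 15 were measured. The list gives no direction of effect, and a link of these genes to Klf4 or Klf5 levels was not tested. At 0.5 h 1 rose (1.68% of all) and 0 fell, Odc1 of polyamine synthesis (0.61 ± 0.14, adjusted p = 0.034), and it was lost in 4 of 18 fits without 1 array (adjusted p up to 0.098). At 6 h against 2 h, the step at which Klf4 and Klf5 fell most, 0 of the 15 fell (8.16% of all) and 2 rose (7.68% of all), Lama3 (0.72 ± 0.16, adjusted p = 0.0069) and Odc1 (0.49 ± 0.11, adjusted p = 0.0056), with a median of 0.01. At 24 h against 6 h, where Klf4 and Klf5 fell further, 6 of the 15 fell and 3 rose (8.83% and 11.5% of all), with a median of -0.07. Among those that fell were the adhesion gene Cdh1 (-1.90 ± 0.18, adjusted p = 5.1e-06), the laminin gene Lama3 (-1.37 ± 0.16, adjusted p = 4.0e-05) and the cell cycle inhibitor Cdkn1a (-1.36 ± 0.22, adjusted p = 4.6e-04). Sprr1a, of the cornified envelope, fell by 2.44 ± 0.62 (adjusted p = 0.011), which was lost in 3 of 18 fits without 1 array (adjusted p up to 0.061). The 3 that rose were Ccnd1 (0.51 ± 0.13), Ccne1 (0.50 ± 0.12) and Birc5 (0.43 ± 0.12), genes of cell division, named after their values were seen. Ccnd1 was lost in 3 and Birc5 in 4 of the 18 fits without 1 array (adjusted p up to 0.055 and 0.086). In NBTII-FGFR1 at 48 h against 0 h 7 were lower and 4 higher (10.9% and 10.5% of all), with a median of -0.54 against -0.04 for all probe sets, and the growth factor receptor gene Egfr was lower by 2.33 ± 0.26 (adjusted p = 2.8e-05). There Odc1 was higher by 1.41 ± 0.15 (adjusted p = 1.9e-05) and Lama3 by 1.32 ± 0.23 (adjusted p = 7.3e-04), while Sprr1a was lower by 2.58 ± 0.88 (adjusted p = 0.049), lost in 9 of 18 fits (adjusted p up to 0.34).

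Of 8 glucocorticoid-responsive genes 7 were measured. At 0.5 h 3 rose (1.68% of all) and 0 fell, namely Dusp1 (4.32 ± 0.35, adjusted p = 1.0e-05), Ddit4 (2.19 ± 0.46, adjusted p = 0.022) and Errfi1 (1.27 ± 0.29, adjusted p = 0.033). Dusp1 and Errfi1 are also known as feedback genes of growth factor signalling, and the list was not chosen to tell the stimuli apart. Ddit4 was lost without 1 array (adjusted p = 0.069) and Errfi1 without 4 (adjusted p up to 0.073). At 6 h against 2 h 5 fell (8.16% of all) and 0 rose, among them Dusp1 (-2.31 ± 0.27, adjusted p = 5.7e-05) and Ddit4 (-1.88 ± 0.35, adjusted p = 0.0020). Fkbp5, a chaperone of the glucocorticoid receptor, fell by 0.69 ± 0.084 (adjusted p = 8.7e-05) and Tsc22d3, an anti-inflammatory target, by 1.06 ± 0.15 (adjusted p = 3.2e-04). At 24 h against 6 h Fkbp5 rose by 0.82 ± 0.084 (adjusted p = 1.2e-05) and Tsc22d3 by 1.11 ± 0.15 (adjusted p = 1.3e-04), Errfi1 fell by 1.33 ± 0.22 (adjusted p = 5.4e-04), and Klf9 gave -0.45 and passed in neither of its probe sets. Between the lines at 2 and 6 h 1 of the 7 passed, Dusp1, higher in NBTII-FGFR1 than in NBTII by 1.82 ± 0.27 (adjusted p = 0.0032). Dusp1 was also higher at 24 and 48 h, by 0.96 ± 0.27 (adjusted p = 0.032), lost in 5 of 18 fits (adjusted p up to 0.14).

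Among the leading probe sets, the time courses of Klf4 and Klf5 were most alike (r = 0.94 over the 12 group means) and those of Klf4 and Klf6 least (r = 0.63). The group means share arrays, lines and times, so these are descriptions. Of 2696 probe sets with 1 usable symbol and a span of group means of at least 1 log2 unit, Klf4 was most like Rhov (r = 0.95), Sik1 (0.94), a kinase, and Ccnl1 (0.93). Klf5 was most like the histone demethylase gene Kdm3a, the desmosome gene Dsp and App (0.92 each), and Klf6 most like Tiparp (0.95), Rhob (0.94) and Ier5 (0.93). Klf9 was most like Tob1 (0.94), Fyn (0.92) and Dusp1 (0.91), and Klf10 most like Ier2 (0.97), an early growth factor gene, Ltbp4 (0.95), a binding protein of latent TGF-beta, and Clstn1 (0.92).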

How the data were processed

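Array signals were summarised by the submitters with RMA, as their processing notes state without a version, and the authors deposited them on the log2 scale. RMA quantile-normalizes arrays, so a change shared by most genes would not show. The 15923 rows were used as deposited: 57 controls were left out and 15866 probe sets tested without a filter on low values. Symbols come from the platform annotation (12783 probe sets with 1 symbol, 312 with several, 2771 with none). Groups were taken from sample titles. A model of 12 group means over all 21 arrays was fitted with limma 3.58.1 in R 4.3.3 (9 residual and 5.68 prior degrees of freedom), so groups with 1 array borrow their spread. P-values were adjusted by Benjamini-Hochberg over all probe sets within each of 17 comparisons, with a threshold of 0.05. Errors are standard errors of the fit. For these comparisons, lack of overlap between arrays is a description, and its share over all probe sets was not counted. The number of arrays limits the precision.

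The members and lists were chosen with earlier results of these data known. A list gene is read from its probe set with the highest mean. Named from each list were up to 4 genes with the largest change past the threshold, and all measured members of the KLF and SP family. Likeness took the 3 highest Pearson correlations per member. RefSeq also lists pseudogenes Klf4-ps1, Klf5-ps1 and Klf5-ps2; whether the probes tell them apart was not tested. Promoters come from RefSeq on GRCr8, which held windows for 4 of 5 members, Klf10 being the other. The fit was tested on simulated data. Replicate numbers were not used as pairs in the main fit. Over 36 pairs of groups, deviations of arrays with the same number correlated between -0.13 and 0.35 (median 0.02), and 15 pairs exceeded 0.1. Whether the numbers pair some of the arrays is thus unclear. Alternatives were repeated quantile normalization, only probe sets at or above the median level, a replicate block, only the arrays compared, an intensity trend with robust variance, weighted arrays, both doubted arrays left out, and each of 18 arrays left out in turn. Figures were drawn with matplotlib 3.10.9.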

Additional observations from a re-analysis of the deposited data

Results flagged for a closer look

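In 4 cases every array of NBTII-FGFR1 lay on one side of its 0 h arrays and every array of NBTII on the other side of its single 0 h array. Probe sets of this kind made up 11.9% of all at 6 h and 15.3% at 48 h, and 0 of the 8 were of this kind at 2 h or 24 h. The differences between the lines were not tested at single times, and the averaged difference in response called 0 of 8. Klf10 at 6 h lay at -0.37 ± 0.15 in NBTII-FGFR1 and 0.50 ± 0.18 in NBTII, a gap of -0.87. Klf4 at 48 h lay at -0.45 ± 0.11 in NBTII-FGFR1 and 0.10 ± 0.13 in NBTII, a gap of -0.54. Klf5 lay at -0.12 ± 0.16 in NBTII-FGFR1 and 0.24 ± 0.20 in NBTII at 6 h, a gap of -0.36. At 48 h it lay at -0.23 ± 0.16 in NBTII-FGFR1 and 0.41 ± 0.20 in NBTII, a gap of -0.63. Klf4 in NBTII-FGFR1 had an adjusted p under 0.05 (0.0068), and the other 7 values ranged from 0.099 to 0.88.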

How the results depend on the processing

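Of 3383 alternative values of 136 results on the 8 probe sets, 3233 kept their direction and side of the threshold, 82 lost a call, 30 gained one and 38 changed sign, of which 0 belonged to a called result. The cause of these changes was not tested. Member calls changed by more than 1.5 times as follows. Without both doubted arrays they numbered 1 at 2 h against 0.5 h and 4 in NBTII-FGFR1 at 2 h. In fits to the compared arrays alone they numbered 3 in NBTII-FGFR1 at 2 h, 5 there at 48 h, 0 in NBTII at 2, 6, 24 and 48 h, and 1 between the lines at 2 and 6 h. NBTII-FGFR1 at 48 h had 5 with the replicate block and 5 with weighted arrays. The replicate block gave 5, 0, 7, 5 and 5 calls over the 5 steps, and whether replicate numbers pair the arrays was unclear. With the block the line difference of the leading Klf9 probe set at 24 and 48 h passed (adjusted p = 0.024), as did both brighter Klf9 probe sets in NBTII-FGFR1 at 48 h (adjusted p = 0.037 and 0.035). Leaving out 1 array gave 4 to 6, 0 to 2, 6 to 7, 4 to 5 and 3 to 5 over these steps, 4 to 7, 1 to 2, 1 to 2 and 2 to 4 in NBTII-FGFR1 at 2 to 48 h, 4, 2, 0 to 2 and 0 to 1 in NBTII, and 2 to 3 and 1 to 3 between the lines. The lone arrays of NBTII at 0 h and of both lines at 0.5 h were never left out. These ranges therefore cannot show how far the steps at 0.5 h, or any NBTII difference from 0 h, rest on them.

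Over all probe sets, the 349 calls at 0.5 h became 147 with the compared arrays alone and 653 with weighted arrays, and the 344 at 2 h against 0.5 h became 0 and, without both doubted arrays, 858. The 2513 at 6 h became 1217 and 1601 with the first 2 of these settings, and the 1801 at 48 h against 24 h became 2874 and 2974. In NBTII-FGFR1 the 1483 calls at 2 h became 259 with the compared arrays alone, 766 with weighted arrays and 686 without both doubted arrays, and the 999 at 24 h became 1715 with weighted arrays and 379 without both doubted arrays. In NBTII, compared arrays alone turned 466 into 28 at 2 h, 936 into 0 at 6 h and 144 into 46 at 48 h. Weighted arrays gave 280 there against 149 at 24 h and 466 at 48 h, and dropping both doubted arrays gave 706 at 2 h, 226 at 24 h and 238 at 48 h. Between the lines 587 calls at 2 and 6 h became 143 with the compared arrays alone and 190 with weighted arrays, and 1815 at 24 and 48 h became 3172 and 3497. The F test called 70, against 43 with the level filter, 36 with the compared arrays alone, 150 with weighted arrays and 19 without both doubted arrays, and the response test 34, against 115 with the replicate block, 102 weighted and 13 without both doubted arrays. Leaving out 1 array, the widest spreads were 6 to 1062 for the F test, 0 to 100 for the response test, 12 to 270 in NBTII at 48 h and 114 to 1357 in NBTII-FGFR1 at 24 h.

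Signs turned only in uncalled values. Leaving out 1 array, the following ranged in log2 difference. At 2 h against 0.5 h, Klf5 ranged from -0.015 to 0.12, the leading Klf6 probe set from -0.029 to 0.13, the second from -0.13 to 0.18 (-0.13 without both doubted arrays), and the dim Klf9 probe set from -0.057 to 0.075 (-0.0062 with repeated quantile normalization). The second Klf9 probe set ranged from -0.097 to 0.059 at 24 h against 6 h, and the dim one from -0.19 to 0.090 at 48 h against 24 h. In NBTII-FGFR1 at 6 h the leading Klf9 probe set ranged from -0.54 to 0.22 and the second from -0.15 to 0.11 (0.011 with repeated normalization). At 24 h there the leading Klf6 probe set ranged from -0.42 to 0.21, the second from -0.21 to 0.039, and the dim one of Klf9 from -0.063 to 0.020 (0.044 with repeated normalization). In NBTII at 2 h the leading Klf9 probe set ranged from -0.16 to 0.94. The dim one ranged there from -0.055 to 0.21, from -0.20 to 0.36 at 24 h and from -0.055 to 0.23 at 48 h. In NBTII, Klf5 at 24 h ranged from -0.35 to 0.021 and Klf10 at 48 h from -0.048 to 0.0067. Between the lines, Klf10 at 2 and 6 h ranged from -0.13 to 0.10. At 24 and 48 h Klf4 ranged from -0.027 to 0.046 (-0.050 with repeated normalization), the dim one of Klf9 from -0.25 to 0.028, and Klf10 from -0.0093 to 0.063 (-0.012 with repeated normalization). Of the 15 genes named for likeness, 4 stayed among the closest 3 with Spearman correlation and 9 with all 21 arrays. The dim Klf9 probe set lay near the lower quartile of all levels, which limits what it can show.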
